A study of Mus musculus with 6 samples.

Results

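The genes that copy DNA were described across 4 RNA-seq libraries of blood stem cells. The set held 45 genes of 30409 in the deposited tables: origin recognition, origin licensing, the replicative helicase and its activation, the primase and the polymerases, the sliding clamp with its loader, single-strand binding and fragment joining. They were chosen as a list of symbols of genes with known roles in replication and matched to the tables through Ensembl gene identifiers, and all 45 were found. The libraries came from bone marrow of C57BL/6 mice where Lineage−Sca1+cKit+CD34−Flk2− cells, the surface pattern of long-term haematopoietic stem cells (LT-HSCs), had been sorted. The 4 groups were Twist1 conditional knockout (cKO) and wild-type (WT) cells taken 12 days after irradiation, and Twist1 cKO and WT cells from untreated mice, called steady state here. The product of Twist1 is a basic helix-loop-helix factor that regulates transcription. The Cre driver of the knockout, the radiation dose, and the age, sex and number of mice are not stated by the labels, and the 2 ATAC-seq samples, both of irradiated cells, were not used here.

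Each group held 1 library, so the spread between mice is unknown and groups could be described but not tested. The values are the authors' FPKM, reads scaled to the length of the gene and the size of the library. Ratios of FPKM are given with exact 95% intervals from the reads recovered behind the values, and these intervals cover counting error only. Differences are on the scale of log2(FPKM + 1), where a gene was kept if either library of a comparison had at least 5 FPKM for it, and a gene was called at a difference of at least 2-fold on that scale. Recovered reads numbered 20349810 in irradiated cKO, 24743744 in irradiated WT, 22127527 in steady-state cKO and 25100739 in steady-state WT cells.

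The libraries differed in more than the labels. Twist1 itself had 0 reads in irradiated cKO against 5 in irradiated WT cells, and 2 in steady-state cKO against 6 in steady-state WT cells, too few to check the deletion firmly. Of 22 LT-HSC identity genes, 4 in irradiated cKO and 5 in irradiated WT cells reached 5 FPKM, against 15 in steady-state cKO and 14 in steady-state WT cells. The irradiated libraries therefore held most of these marker genes of the labelled cell type under 5 FPKM. Those that reached it were Ly6a, Gata2, Tal1 and Lmo2 in both genotypes, and Kit in WT cells. Of the sorting gate, Ly6a (Sca1) had 256 FPKM in irradiated cKO and 89.1 in irradiated WT cells, against 362 and 534 FPKM at steady state. Kit had 4.98 and 8.52 FPKM against 27.6 and 20.1 FPKM, in the same order. Erythroid genes (23, none at 0) summed to 17602 and 14854 FPKM in irradiated cKO and WT cells, against 2922 and 4344 FPKM in steady-state cKO and WT cells. Neutrophil genes (13, none at 0) summed to 1341, 442, 2725 and 1636 FPKM in the same order of libraries, B and plasma cell genes (12, with 1 at 0 in irradiated WT cells) to 4612, 1605, 3249 and 5768 FPKM, and macrophage and dendritic genes (14, none at 0) to 2754, 1425, 1382 and 2683 FPKM. The sums of the 5 lists of early myeloid, T and NK cell, mast cell and basophil, megakaryocyte and stromal genes ran from 7.19 to 165 FPKM in irradiated cKO and from 4.08 to 88.4 FPKM in irradiated WT cells, against 46.1 to 1298 FPKM in steady-state cKO and 53.4 to 1687 FPKM in steady-state WT cells. The X-inactivation transcript Xist had 0.573 and 1.003 FPKM in irradiated cKO and WT cells, against 0.0155 and 0.0171 FPKM in steady-state cKO and WT cells, and the Y-linked Ddx3y had 0.0164 and 0.0521 FPKM against 12.4 and 10.2 FPKM. Irradiation, the mice's sex and the makeup of the sorted cells cannot be told apart in these libraries, and in bulk RNA more replicating cells and more replication RNA per cell cannot be told apart either.

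Replication starts at origins that the origin recognition complex (ORC) marks. In G1 phase Cdc6 and Cdt1 load the ring of Mcm2 to Mcm7 there, which licenses the origin, and geminin (Gmnn) later blocks Cdt1 so that no origin fires again. In S phase the kinase of Cdc7 and its activator Dbf4 helps turn the ring into an active helicase with Cdc45 and the GINS complex, after which polymerase alpha-primase starts each strand and polymerases epsilon and delta extend it on the clamp Pcna. Resting LT-HSCs divide rarely, and many of these genes are known targets of E2F factors, which switch them on as cells leave quiescence.

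All 45 genes were detected in all 4 libraries. Their median level was 27.8 FPKM in irradiated cKO, 38.5 in irradiated WT, 19.2 in steady-state cKO and 18.8 in steady-state WT cells, and 41, 43, 40 and 39 of them reached 5 FPKM in these libraries. Together they took 0.617% of recovered reads (0.614 to 0.621) in irradiated cKO and 0.703% (0.699 to 0.706) in irradiated WT cells, against 0.468% (0.465 to 0.471) in steady-state cKO and 0.412% (0.410 to 0.415) in steady-state WT cells, with exact Clopper-Pearson intervals. Pcna, the sliding clamp (chr2:132249286-132253180, GRCm38.p6), was highest in each library, with 181 FPKM in irradiated cKO, 259 in irradiated WT, 124 in steady-state cKO and 124 in steady-state WT cells. The lowest was Fen1, the flap endonuclease that trims Okazaki fragments, with 0.581 FPKM in irradiated cKO, 0.634 in irradiated WT, 0.425 in steady-state cKO and 0.222 in steady-state WT cells. Its levels rested on 33, 34, 26 and 14 reads, whereas the next lowest gene in each library had 149 to 306 reads. Fen1 overlaps Tmem258 in RefSeq, and so do 11 other genes of the set overlap a coding neighbour (Mcm7, Gins2, Cdc45, Orc1, Orc3, Orc4, Pold2, Pole2, Rfc4, Rpa1 and Lig1). No source used here says whether the counting used strand, so levels of these 12 are less certain.

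**Figure D1:**
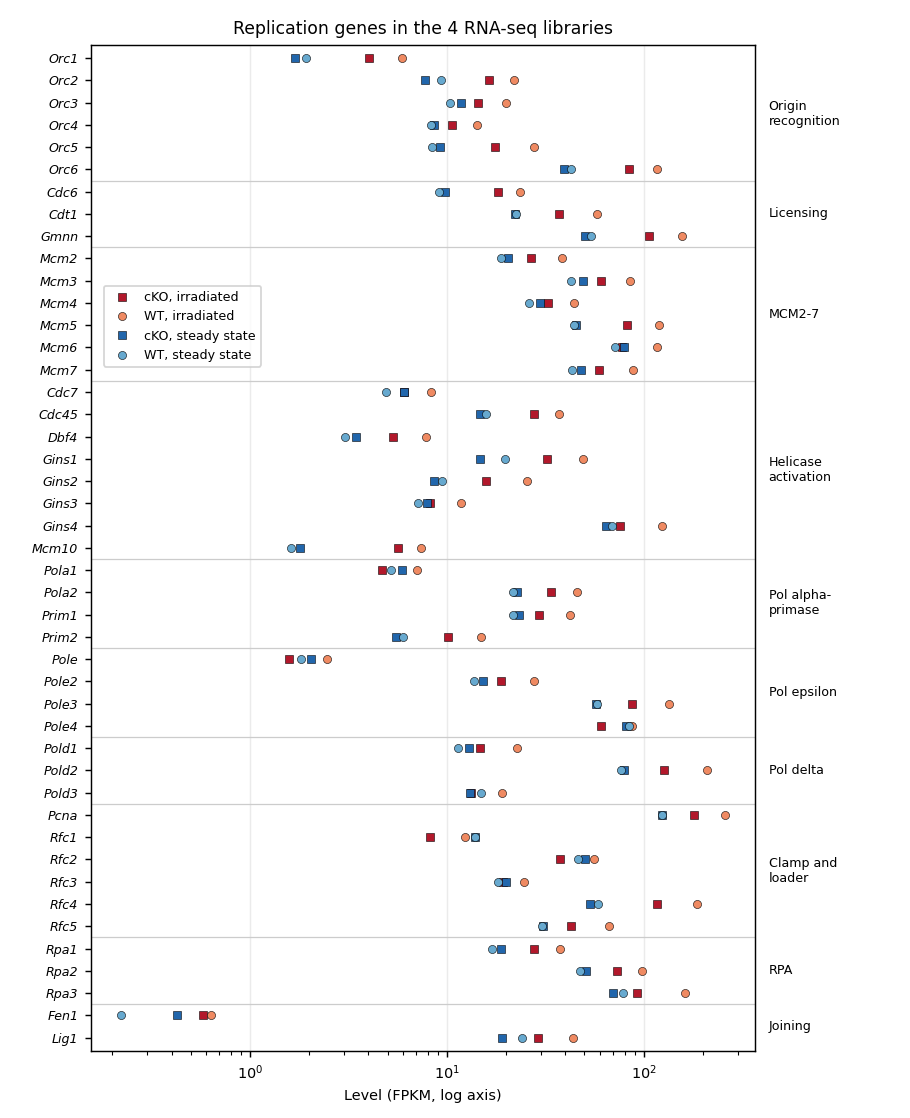
Level of each of the 45 replication genes in FPKM (log axis), grouped by role, with 1 point per library: red squares for irradiated cKO, orange circles for irradiated WT, dark blue squares for steady-state cKO and light blue circles for steady-state WT cells. The irradiated WT point lies farthest right for each gene except Rfc1, and Pcna reaches 259 FPKM there.

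Many of these genes share a short promoter sequence. RefSeq promoter windows (GRCm38.p6, 250 bases before to 50 after the start) were given for 37 of the 45, and not for Mcm4, Gins1, Gins2, Gins4, Gmnn, Prim2, Pole and Rfc2. An E2F octamer (TTTCCCGC, TTTGGCGC, TTTGCCGC or TTTCGCGC, on either strand) was present for 16 of the 37 (43.2%) and for 704 of 27025 genes with a window (2.60%). The CCAAT box was present for 21 of the 37 (56.8%, against 41.1% of all genes) and the CHR hexamer TTTGAA for 7 (18.9%, against 20.2%). The stretches of 120 bases printed here belong to a pair of MCM genes that differ in their response to irradiation (Mcm5 and Mcm6), a GINS subunit and a clamp loader subunit with an octamer (Gins3 and Rfc3), and an MCM gene and a clamp loader subunit without one (Mcm2 and Rfc4). Octamers are in capitals, and where 2 of them overlap the capitals form 1 longer run. They run 5′ to 3′ on the gene's strand: Mcm5 from chr8:75109344-75109463 (plus strand), Mcm6 from chr1:128359706-128359825 (minus), Gins3 from chr8:95633439-95633558 (plus), Rfc3 from chr5:151651209-151651328 (minus), Mcm2 from chr6:88898781-88898900 (minus) and Rfc4 from chr16:23127731-23127850 (minus).
Mcm5: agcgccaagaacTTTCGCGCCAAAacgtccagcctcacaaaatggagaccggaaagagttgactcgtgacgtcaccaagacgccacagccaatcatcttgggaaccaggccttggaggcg
Mcm6: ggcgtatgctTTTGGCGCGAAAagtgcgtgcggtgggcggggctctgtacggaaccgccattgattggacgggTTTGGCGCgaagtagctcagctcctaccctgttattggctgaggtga
Gins3: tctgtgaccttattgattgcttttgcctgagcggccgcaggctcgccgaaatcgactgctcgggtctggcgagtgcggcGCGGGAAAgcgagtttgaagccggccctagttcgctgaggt
Rfc3: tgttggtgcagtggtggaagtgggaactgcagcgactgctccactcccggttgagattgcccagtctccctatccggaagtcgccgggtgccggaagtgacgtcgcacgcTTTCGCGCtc
Mcm2: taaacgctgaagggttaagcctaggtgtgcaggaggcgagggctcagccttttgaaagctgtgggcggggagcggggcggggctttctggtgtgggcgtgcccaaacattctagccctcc
Rfc4: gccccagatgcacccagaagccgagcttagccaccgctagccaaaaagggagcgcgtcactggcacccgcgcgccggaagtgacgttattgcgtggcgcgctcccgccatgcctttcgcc
Each stretch ends at the base before the annotated start, except that of Mcm5, which spans bases −165 to −46. Positions for Mcm5 count from the start used for its promoter window, which lies downstream of the gene's first annotated base, chr8:75109468. Mcm6 holds 3 octamers, starting at −110, −106 and −47, and the first 2 overlap. Mcm5 holds 2 overlapping ones at −153 and −149, Gins3 has 1 at −41, and Rfc3 has 1 at −10 within the stretch. A match describes the letters and does not show that a factor binds.

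After irradiation, most replication genes had higher levels than at steady state in both genotypes. In cKO cells 5 of 42 genes kept rose at least 2-fold (11.9%, beside 10.3% of all 7393 genes kept) and none fell 2-fold (22.6% of all genes did). In WT cells 24 of 43 rose at least 2-fold (55.8%, beside 18.9% of all 7418 genes kept) and none fell 2-fold (18.9% of all genes). The median difference was 0.48 in cKO cells, against −0.20 over all genes, and 1.03 in WT cells, against 0.21 over all genes. The count in cKO cells was thus near the background, whereas 15 of 42 rose at least 1.5-fold there (35.7%, beside 20.8% of all genes) and 38 of 42 lay above the median of all genes. In WT cells 37 of 43 rose at least 1.5-fold (86.0%, beside 34.9%) and 41 lay above that median. As a share of recovered reads, the set was 1.32 times (1.31 to 1.33) as large after irradiation in cKO cells and 1.71 times (1.69 to 1.72) in WT cells.

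Because the median of all genes itself shifted, the members were also read relative to it. Relative to all genes the median member was 0.68 higher after irradiation in cKO and 0.83 higher in WT cells. Over 4 other scalings (median of ratios, upper quartile, the 50 most abundant genes left out, recovered read totals) the relative value lay at 0.62, 0.60, 0.79 and 0.70 in cKO cells and at 0.81, 0.78, 0.93 and 0.84 in WT cells. With differences centred on the median of all genes, 10 of 42 in cKO and 12 of 43 in WT cells were at least 2-fold higher, beside 14.5% and 12.7% of all genes. Under the 4 other scalings, in that order, 12, 34, 1 and 6 in cKO and 30, 37, 10 and 12 in WT cells were at least 2-fold higher. Replication genes kept numbered 42, 43, 43 and 42 in cKO cells and 43 under each scaling in WT cells. Of all genes 16.3%, 43.7%, 9.07% and 10.7% were 2-fold higher in cKO and 24.8%, 42.6%, 8.91% and 12.6% in WT cells. The counts of 1 and 6 in cKO cells were thus below or near the background. The size of both counts thus rested on the scaling, and the count was larger in WT cells under each. Of the genes kept, Mcm10 and Dbf4 in cKO cells and Mcm10, Cdc7, Dbf4 and Orc1 in WT cells passed the 5 FPKM minimum through the irradiated library alone. As deposited, Mcm10 is in the count of 5 genes 2-fold higher in cKO cells. Mcm10, Dbf4 and Orc1 are in the count of 24 in WT cells. Pola1 in cKO cells passed the minimum through the steady-state library alone. Orc1 in cKO cells, and Pole and Fen1 in both genotypes, stayed under the minimum.

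**Figure D2:**
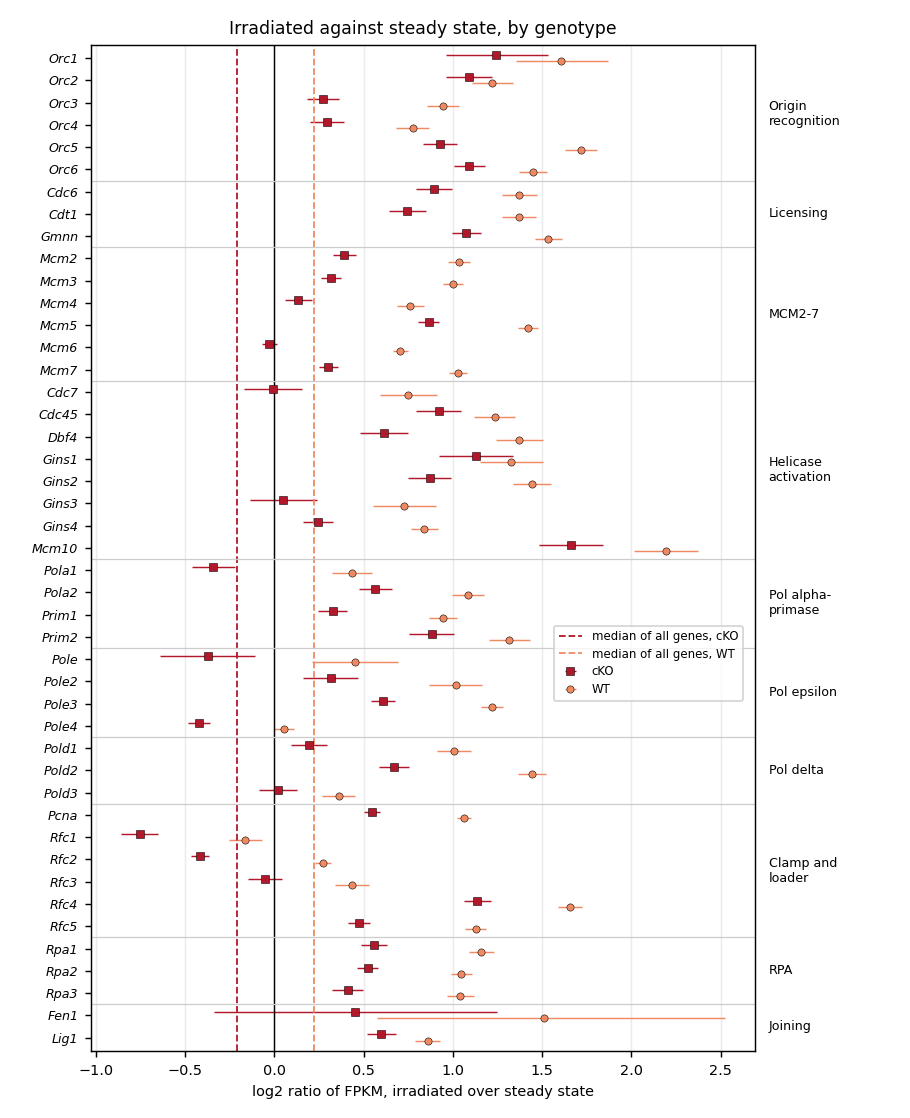
log2 ratio of FPKM, irradiated over steady state, for each replication gene in cKO (red squares) and WT cells (orange circles), with exact 95% counting intervals as bars. Dashed lines mark the median log2 ratio of all genes kept, −0.21 in cKO and 0.22 in WT cells, and Mcm10 lies farthest to the right while Rfc1 lies farthest to the left in both genotypes.

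Among origin recognition genes, the subunits of the complex that marks origins, Orc6 was the most abundant, with 83.7 FPKM in irradiated cKO, 117 in irradiated WT, 39.3 in steady-state cKO and 42.7 in steady-state WT cells. It rose in both genotypes, with irradiated over steady ratios of 2.13 (2.01 to 2.26) in cKO and 2.73 (2.59 to 2.89) in WT cells. Orc5 had 17.6 FPKM in irradiated cKO, 27.6 in irradiated WT, 9.24 in steady-state cKO and 8.39 in steady-state WT cells, and its difference reached 0.86 in cKO and 1.61 in WT cells, the second at over 2-fold. Orc2 had 16.4 FPKM in irradiated cKO, 21.8 in irradiated WT, 7.72 in steady-state cKO and 9.37 in steady-state WT cells, and Orc1, the ATPase subunit, had 4.02 FPKM in irradiated cKO, 5.89 in irradiated WT, 1.70 in steady-state cKO and 1.93 in steady-state WT cells. Both passed 2-fold in WT cells, where their ratios were 2.33 (2.15 to 2.52) and 3.05 (2.56 to 3.65), while Orc3 and Orc4 stayed under it at differences of 0.88 and 0.71. In cKO cells Orc6 was the 1 subunit kept that passed 2-fold. Orc2 had nearly the same FPKM ratio there, 2.13 (1.95 to 2.33), and stayed just short of 2-fold once 1 FPKM was added, and Orc3 and Orc4 differed by 0.25 and 0.27.

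All 3 licensing genes rose in WT cells. Gmnn, the inhibitor of Cdt1, had 106 FPKM in irradiated cKO, 156 in irradiated WT, 50.3 in steady-state cKO and 53.7 in steady-state WT cells, and its ratio was 2.11 (1.99 to 2.23) in cKO and 2.90 (2.75 to 3.05) in WT cells. Cdt1, which brings the MCM ring to origins, had 37.3 FPKM in irradiated cKO, 58.1 in irradiated WT, 22.2 in steady-state cKO and 22.5 in steady-state WT cells. Cdc6, the ATPase that acts with it, had 18.1 FPKM in irradiated cKO, 23.6 in irradiated WT, 9.74 in steady-state cKO and 9.11 in steady-state WT cells. In cKO cells Gmnn passed 2-fold, and Cdt1 and Cdc6 lay at differences of 0.72 and 0.83. The ratio of Cdt1 to Gmnn in FPKM was 0.351 in irradiated cKO and 0.373 in irradiated WT cells, against 0.442 in steady-state cKO and 0.418 in steady-state WT cells, so the inhibitor exceeded its target in each library.

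The 6 subunits of the MCM ring did not differ by the same amount. Mcm5 had 82.1 FPKM in irradiated cKO, 119 in irradiated WT, 45.1 in steady-state cKO and 44.4 in steady-state WT cells, with an irradiated over steady ratio of 1.82 (1.75 to 1.90) in cKO and 2.68 (2.58 to 2.78) in WT cells. Mcm6 had 77.9 FPKM in irradiated cKO, 116 in irradiated WT, 79.4 in steady-state cKO and 71.2 in steady-state WT cells, with ratios of 0.981 (0.953 to 1.01) and 1.63 (1.59 to 1.68). Mcm6 was thus the most abundant subunit at steady state, and Mcm5 exceeded it after irradiation, although the promoter stretches of both hold octamers. Mcm7 (59.0, 88.1, 47.9 and 43.1 FPKM in irradiated cKO, irradiated WT, steady-state cKO and steady-state WT cells) rose 2-fold in WT cells, and Mcm2 (26.8, 38.5, 20.5 and 18.8 FPKM) and Mcm3 (60.9, 85.1, 48.9 and 42.5 FPKM) had FPKM ratios of 2.05 (1.96 to 2.14) and 2.001 (1.93 to 2.08) there but stayed just short of 2-fold once 1 FPKM was added. Mcm4 (32.8, 44.2, 29.8 and 26.0 FPKM) had a ratio of 1.70 (1.61 to 1.79) in WT cells. In cKO cells no subunit passed 2-fold, and the differences ran from −0.03 (Mcm6) to 0.85 (Mcm5).

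Helicase activation held the gene with the largest response, Mcm10. It passed the 5 FPKM minimum through the irradiated library alone in both genotypes. Mcm10, a factor that helps start the assembled helicase (chr2:4990724-5012791), had 5.65 FPKM in irradiated cKO, 7.40 in irradiated WT, 1.79 in steady-state cKO and 1.62 in steady-state WT cells, and rose by ratios of 3.16 (2.80 to 3.58) in cKO and 4.57 (4.04 to 5.18) in WT cells. Gins1, a GINS subunit, had 32.2 FPKM in irradiated cKO, 49.4 in irradiated WT, 14.7 in steady-state cKO and 19.7 in steady-state WT cells, and it passed 2-fold in both genotypes with ratios of 2.19 (1.89 to 2.53) and 2.51 (2.22 to 2.84). Gins2 had 15.7 FPKM in irradiated cKO, 25.6 in irradiated WT, 8.61 in steady-state cKO and 9.41 in steady-state WT cells. Cdc45 had 27.8 FPKM in irradiated cKO, 37.3 in irradiated WT, 14.7 in steady-state cKO and 15.8 in steady-state WT cells. Gins2, Cdc45 and Dbf4 passed 2-fold in WT cells, with differences of 1.35, 1.18 and 1.13, and stayed under it in cKO cells, at 0.80, 0.88 and 0.50. Within the same 4-subunit complex Gins4 (75.8, 124, 64.1 and 69.0 FPKM in the same order) and Gins3 (8.20, 11.8, 7.92 and 7.10 FPKM) differed less, by 0.24 and 0.05 in cKO and by 0.83 and 0.66 in WT cells. The kinase subunit Cdc7 had 6.05 FPKM in irradiated cKO, 8.30 in irradiated WT, 6.07 in steady-state cKO and 4.93 in steady-state WT cells, and its ratio of 0.996 (0.889 to 1.12) in cKO cells spanned 1.

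The polymerases were divided by subunit. Pold2, the regulatory subunit of polymerase delta, had 127 FPKM in irradiated cKO, 209.5 in irradiated WT, 79.4 in steady-state cKO and 77.0 in steady-state WT cells, and its ratio was 1.59 (1.503 to 1.69) in cKO and 2.72 (2.58 to 2.87) in WT cells. The catalytic subunit Pold1 (14.8, 22.8, 12.9 and 11.4 FPKM in irradiated cKO, irradiated WT, steady-state cKO and steady-state WT cells) and the accessory Pold3 (13.3, 19.1, 13.1 and 14.9 FPKM) did not pass 2-fold, with differences of 0.18 and 0.02 in cKO and 0.94 and 0.34 in WT cells. For polymerase epsilon, the histone-fold subunit Pole3 had 87.0 FPKM in irradiated cKO, 135 in irradiated WT, 57.1 in steady-state cKO and 57.8 in steady-state WT cells, and rose 2-fold in WT cells. Its partner Pole4 had 60.7 FPKM in irradiated cKO, 87.3 in irradiated WT, 81.3 in steady-state cKO and 84.0 in steady-state WT cells. Pole4 differed by −0.41 in cKO and 0.06 in WT cells, the lowest but one of the set in each genotype. The catalytic subunit Pole was scarce, with 1.57 FPKM in irradiated cKO, 2.48 in irradiated WT, 2.04 in steady-state cKO and 1.81 in steady-state WT cells, and Pole2 had 18.9, 27.8, 15.2 and 13.7 FPKM in that order.

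Among polymerase alpha-primase genes, Pola2 and Prim2, the regulatory subunits of the polymerase and the primase, passed 2-fold in WT cells, with differences of 1.05 and 1.19. Prim2 had 10.1 FPKM in irradiated cKO, 14.9 in irradiated WT, 5.50 in steady-state cKO and 5.97 in steady-state WT cells, and Pola2 had 33.7, 45.8, 22.8 and 21.6 FPKM in that order. Pola1, the catalytic subunit, had 4.69 FPKM in irradiated cKO, 7.07 in irradiated WT, 5.94 in steady-state cKO and 5.23 in steady-state WT cells. In cKO cells it passed the 5 FPKM minimum through the steady-state library alone. Its ratio was 0.789 (0.725 to 0.858) in cKO and 1.35 (1.25 to 1.46) in WT cells, so the intervals lay on opposite sides of 1. Under upper-quartile scaling all 43 genes kept were higher after irradiation in cKO cells, so this turn was lost. Pola1 is X-linked, and the libraries are divided by sex-linked transcripts in the way that they are divided by irradiation. The primase subunit Prim1 (29.3, 42.0, 23.3 and 21.8 FPKM) differed by 0.32 in cKO and 0.92 in WT cells.

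The clamp loader genes differed from each other in their response. Rfc4 (chr16:23113948-23127730), a small subunit, had 117 FPKM in irradiated cKO, 186 in irradiated WT, 53.2 in steady-state cKO and 58.9 in steady-state WT cells, and rose in both genotypes with ratios of 2.20 (2.09 to 2.32) and 3.15 (3.01 to 3.31). Rfc1 (chr5:65261852-65338617), the large subunit that holds the clamp, had 8.23 FPKM in irradiated cKO, 12.4 in irradiated WT, 13.9 in steady-state cKO and 13.9 in steady-state WT cells. It was 1.69-fold lower (1.57 to 1.81) after irradiation in cKO cells, the 1 gene of the set past 1.5-fold lower there (2.38%, beside 34.6% of all genes), and 1.12-fold lower (1.05 to 1.19) in WT cells. The call in cKO cells rested on the processing: the difference was −0.69 as deposited, −0.51 with a pseudocount of 5, −0.45 with the median of ratios and −0.49 centred on all genes, all 3 short of 1.5-fold, and 0.24 with the upper quartile. The most abundant of Rfc1 to Rfc5 exceeded the scarcest 14.2 times in irradiated cKO and 15.0 times in irradiated WT cells, against 3.83 times in steady-state cKO and 4.24 times in steady-state WT cells. For the MCM ring that factor was 3.06 and 3.09 in irradiated cKO and WT cells, against 3.88 and 3.78 in steady-state cKO and WT cells. It was 20.8 and 19.8 against 23.2 and 22.1 for Orc1 to Orc6, the widest of these complexes in each library, and 9.24 and 10.5 against 8.09 and 9.71 for Gins1 to Gins4, in the same order. Rfc5 and Pcna passed 2-fold in WT cells (1.10 and 1.06) and not in cKO cells (0.46 and 0.54), and Rfc2 and Rfc3 differed by −0.41 and −0.05 in cKO and 0.27 and 0.41 in WT cells. Rfc4 overlaps Eif4a2 in RefSeq, a limit on its value.

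The single-strand binding genes lay close together. Rpa1, Rpa2 and Rpa3, the subunits of replication protein A, differed by 0.54, 0.51 and 0.41 in cKO cells and by 1.11, 1.03 and 1.03 in WT cells, where all 3 passed 2-fold. Rpa1 had 27.7 FPKM in irradiated cKO, 37.8 in irradiated WT, 18.8 in steady-state cKO and 16.9 in steady-state WT cells. Rpa2 had 73.1 FPKM in irradiated cKO, 97.7 in irradiated WT, 50.9 in steady-state cKO and 47.3 in steady-state WT cells. Lig1, the ligase that seals Okazaki fragments, had 29.0 FPKM in irradiated cKO, 43.8 in irradiated WT, 19.2 in steady-state cKO and 24.1 in steady-state WT cells, under 2-fold in both genotypes at differences of 0.57 and 0.83.

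Between genotypes after irradiation, all 43 replication genes kept were lower in cKO than in WT cells, and so were 87.5% of all 6348 genes kept. None was 2-fold lower (1.04% of all genes were) or 2-fold higher (4.47%), and 11 fell at least 1.5-fold (25.6%, beside 24.6% of all genes). That count is near the background and is no result about replication genes. Orc1 and Pola1 passed the 5 FPKM minimum through the WT library alone. Markers of other cell types differed in the same comparison: 8 of 8 neutrophil, 4 of 5 early myeloid, 4 of 5 T and NK cell, 5 of 12 macrophage and dendritic, 3 of 8 B and plasma cell and 7 of 19 erythroid genes kept were at least 2-fold higher in cKO than in WT cells, and 1 erythroid gene was 2-fold lower. Some of those called higher passed the 5 FPKM minimum through the cKO library alone. These were Cd3g, Trbc1, Trbc2 and Cd7, all the T and NK cell genes called, and Mpo, Ms4a3, Lcn2, Retnlg, Slc4a1 and Trim10. The part of cell makeup in the genotype difference was not tested. The median difference was −0.51, against −0.45 over all genes, a relative value of −0.06. The set was more even than the genes around it, with an interquartile range of 0.14 against 0.30 over all genes.

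The lowest was Rpa3, the smallest subunit of replication protein A (chr6:8255936-8259141), with 92.3 FPKM in irradiated cKO, 162 in irradiated WT, 69.4 in steady-state cKO and 78.9 in steady-state WT cells, or 1.76-fold lower (1.67 to 1.85) in cKO than in WT cells after irradiation. Pold2 followed at 1.66-fold lower (1.58 to 1.74), from the values given above, then Gins4 at 1.63-fold lower (1.55 to 1.72) and Gins2 at 1.63-fold lower (1.52 to 1.74). Gins4 had 75.8 FPKM in irradiated cKO and 124 FPKM in irradiated WT cells. Rfc4, Rfc5, Cdt1, Pole3, Orc5, Gins1 and Pold1 made up the rest of the 11, at differences between −0.66 and −0.59. At the other end were Rfc3 (−0.33, 19.3 against 24.5 FPKM), Mcm10 (−0.34) and Cdc6 (−0.36). Across the 43 genes the difference tended to be less negative in longer gene models (Spearman's rho 0.33, and 0.07 over all genes) and more negative at higher mean FPKM (−0.52, and −0.29 over all genes), a description over genes of the same 2 libraries.

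The size of this difference, and its sign for some genes, depended on the scaling. The authors' library size was 1.15 times the recovered reads in irradiated cKO and 0.895 times in irradiated WT cells, and FPKM are divided by that size. The median over the set became −0.41, −0.02, −0.14 and −0.17 with the median of ratios, the upper quartile, the 50 most abundant genes left out and recovered read totals, against −0.35, 0.08, −0.06 and −0.11 over all genes. Under the upper quartile 23 of 43 were lower and 20 higher in cKO cells, and under the other 3 scalings 43, 40 and 42 were lower. As a share of recovered reads, the set was 0.879 times (0.872 to 0.885) as large in cKO as in WT cells after irradiation.

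At steady state the genotypes differed little in these genes. None of 40 genes kept was 1.5-fold or 2-fold apart, beside 0.643% of all 7157 genes kept at 2-fold higher and 2.7% at 2-fold lower in cKO cells, and 1.77% and 5.51% at 1.5-fold. The median difference was 0.05, against 0.01 over all genes, with 23 higher (57.5%, beside 51.5% of all genes) and 17 lower (42.5%, beside 48.5%) in cKO than in WT cells. Those splits were 24 and 16, 31 and 7, 38 and 3, and 34 and 6 with the median of ratios, the upper quartile, the 50 most abundant genes left out and recovered read totals. The counting interval of the FPKM ratio lay above 1 for 16 of the 45 genes, below 1 for 9 and spanned it for 20. Among markers of other cell types, 5 of 9 neutrophil genes were at least 2-fold higher, and 8 of 10 macrophage and dendritic and 4 of 16 erythroid genes 2-fold lower, in cKO than in WT cells, and their part was not tested. Retnlg, a neutrophil gene called, passed the 5 FPKM minimum through the cKO library alone. Recovered reads of the set took 1.14 times (1.13 to 1.15) the share in cKO that they took in WT cells.

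All 6 MCM ring genes were on the higher side in cKO cells at steady state, at differences from 0.02 (Mcm5) to 0.20 (Mcm3), and none reached 1.5-fold. Mcm3 had 48.9 FPKM in cKO and 42.5 FPKM in WT cells, a ratio of 1.15 (1.10 to 1.20). The highest difference was that of Cdc7, with 6.07 FPKM in cKO and 4.93 FPKM in WT cells, a ratio of 1.23 (1.10 to 1.38), and Cdc7 passed the 5 FPKM minimum through the cKO library alone. Mcm4, Orc3, Pold1 and Pola1 followed, at 0.19, 0.18, 0.17 and 0.16. On the lower side Gins1 (chr2:150909556-150931280) had 14.7 FPKM in cKO and 19.7 FPKM in WT cells, or 1.34-fold lower (1.14 to 1.56). Lig1 had 19.2 against 24.1 FPKM, or 1.26-fold lower (1.19 to 1.33), and Orc2 had 7.72 against 9.37 FPKM, or 1.21-fold lower (1.10 to 1.34). Rpa3, Pold3 and Rfc4 lay at −0.18, −0.17 and −0.14.

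**Figure D3:**
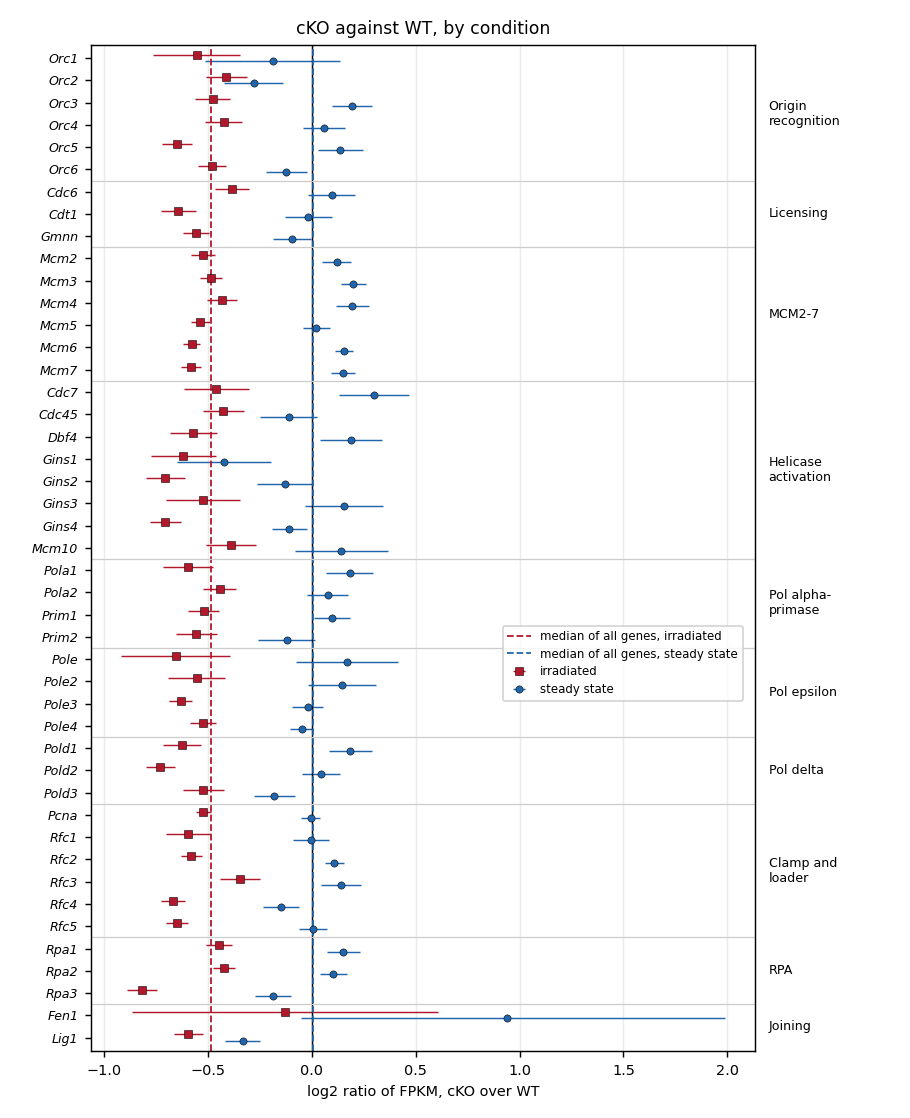
log2 ratio of FPKM, cKO over WT, for each replication gene after irradiation (red squares) and at steady state (blue circles), with exact 95% counting intervals as bars. Dashed lines mark the median log2 ratio of all genes kept, −0.48 after irradiation and 0.01 at steady state, and the irradiated points gather around their line with Rpa3 farthest to the left.

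The genotype difference after irradiation minus that at steady state was below 0 for all 43 genes kept, as for 80.6% of all 7772 genes kept. Its median was −0.58, against −0.40 over all genes, and 21 genes were at or beyond 1.5-fold lower (48.8%, beside 21.9% of all genes). Pold2 (−0.77), Pold1 (−0.76), Orc5 (−0.74), Mcm6 (−0.73) and Mcm7 (−0.72) were lowest, and Orc2 (−0.14), Gins1 (−0.21) and Lig1 (−0.26) were nearest to 0. The count of 21 rested on the scaling, with 5, 0, 1 and 0 genes under the median of ratios, the upper quartile, the 50 most abundant genes left out and recovered read totals. The median relative to all genes was −0.18 as deposited and −0.17, −0.16, −0.17 and −0.16 under those scalings.

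**Figure D4:**
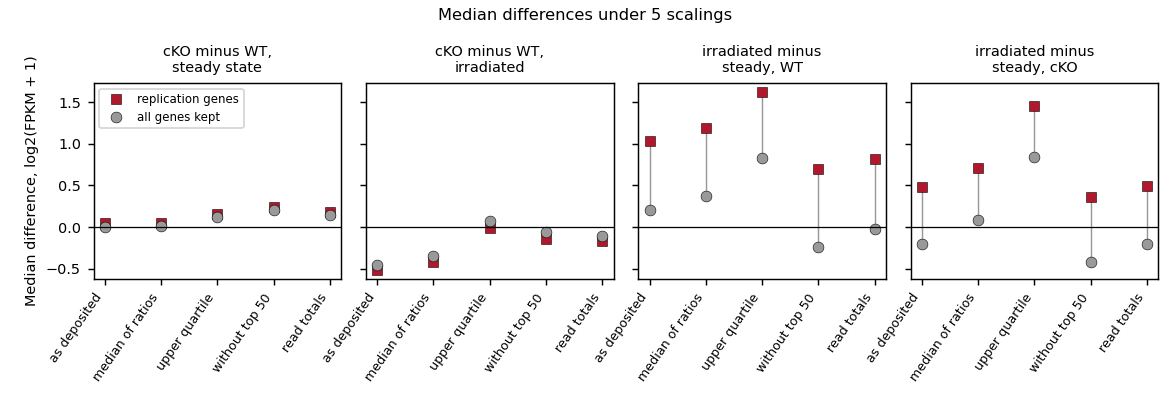
Median difference on log2(FPKM + 1) over the replication genes (red squares) and over all genes kept (grey circles), as deposited and under 4 other scalings, in 1 panel per comparison. In the irradiation panels the replication genes lie above all genes under each scaling, by 0.60 to 0.79 in cKO and 0.78 to 0.93 in WT cells, and in the genotype panels the 2 markers move together and lie 0.09 or less apart.

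Other genes of replication and division were also counted after irradiation. Of the replisome partners, 14 were kept in cKO cells with 1 at least 2-fold higher and 1 lower, and 17 in WT cells with 6 higher and none lower. Of all genes 10.3% were 2-fold higher and 22.6% lower in cKO cells, and 18.9% each way in WT cells. The 1 of 14 higher in cKO cells is thus near the background, and the 1 of 14 lower is under it. Tipin, a fork protection factor, had 324 FPKM in irradiated cKO, 469.5 in irradiated WT, 158 in steady-state cKO and 164 in steady-state WT cells and rose 2-fold in both genotypes, while Pold4, the smallest subunit of polymerase delta, had 22.2 FPKM in irradiated cKO, 27.7 in irradiated WT, 49.8 in steady-state cKO and 50.7 in steady-state WT cells and fell 2-fold in cKO cells. Wdhd1 and Chtf18, both called in WT cells, passed the 5 FPKM minimum through the irradiated library alone. Of deoxynucleotide supply genes, 3 of 10 in cKO and 7 of 11 in WT cells were at least 2-fold higher. Cad, called in WT cells, passed the minimum in that way too. Rrm2, the small subunit of ribonucleotide reductase, had 179 FPKM in irradiated cKO, 226 in irradiated WT, 51.3 in steady-state cKO and 52.1 in steady-state WT cells. Rrm1, the large subunit, had 96.7 FPKM in irradiated cKO, 136 in irradiated WT, 44.3 in steady-state cKO and 40.2 in steady-state WT cells, and Dut, which removes dUTP, had 212, 343, 98.8 and 126 FPKM in that order. Of replication-coupled chromatin assembly genes, 1 of 11 in cKO and 4 of 12 in WT cells passed 2-fold, among them the histone chaperone gene Asf1b with 92.9 FPKM in irradiated cKO, 122 in irradiated WT, 36.8 in steady-state cKO and 35.8 in steady-state WT cells. The 1 of 11 in cKO cells is near the background.

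E2F and RB family genes, which encode regulators of S phase entry, were mostly low. Of 17, 7 were kept, and 2 in cKO and 3 in WT cells rose at least 2-fold, with none 2-fold lower. Of all genes 10.3% were 2-fold higher and 22.6% lower in cKO cells, and 18.9% each way in WT cells. Mybl2, in both counts, passed the 5 FPKM minimum through the irradiated library alone in each genotype. E2f4 had 103 FPKM in irradiated cKO, 135 in irradiated WT, 46.0 in steady-state cKO and 43.8 in steady-state WT cells, and Mybl2, an activator of late cell cycle genes, had 12.0 FPKM in irradiated cKO, 16.2 in irradiated WT, 4.70 in steady-state cKO and 4.79 in steady-state WT cells. Tfdp1, the dimer partner of E2F factors, passed 2-fold in WT cells with a difference of 1.09 and had 0.34 in cKO cells. E2f1 had 12.0 FPKM in irradiated cKO, 12.8 in irradiated WT, 14.5 in steady-state cKO and 12.0 in steady-state WT cells, a difference of −0.26 in cKO and 0.09 in WT cells. G2 and M phase genes were further apart than the replication genes, with 16 of 23 in cKO and 20 of 24 in WT cells at least 2-fold higher and medians of 1.10 and 1.67. Some of them, Cdc25c and Bub1 included, passed the 5 FPKM minimum through the irradiated library alone. Ccnb1, a mitotic cyclin, had 106 FPKM in irradiated cKO, 162 in irradiated WT, 25.2 in steady-state cKO and 23.9 in steady-state WT cells.

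Between genotypes after irradiation, the same lists held 6 of 17 replisome partners, 3 of 11 deoxynucleotide genes, 5 of 12 chromatin assembly genes, none of 7 E2F and RB genes and 13 of 24 G2 and M phase genes at least 1.5-fold lower in cKO cells, beside 24.6% of all genes. At steady state 1 gene of these 5 lists was 1.5-fold apart, Rbbp4, a histone-binding subunit of chromatin assembly factor 1, with 29.3 FPKM in cKO and 15.2 FPKM in WT cells. Erythroid genes, markers of another cell type, rose with the set after irradiation. At least 2-fold higher were 17 of 19 kept in cKO and 17 of 17 in WT cells (10.3% and 18.9% of all genes). At least 2-fold lower were 13 of 15 LT-HSC identity genes in cKO and 12 of 14 in WT cells (beside 22.6% and 18.9%). Alas2 in both genotypes, and Slc4a1 and Trim10 in cKO cells, passed the 5 FPKM minimum through the irradiated library alone. Most LT-HSC genes called passed it through the steady-state library alone. The exceptions were Gata2 and Lmo2 in both genotypes, and Kit and Ly6a in WT cells. Klf1, the erythroid transcription factor, had 427 FPKM in irradiated cKO, 703 in irradiated WT, 70.0 in steady-state cKO and 93.5 in steady-state WT cells. The part of a change in cell makeup in the replication genes' difference was not tested.

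Among genes with a window, the promoter octamer did not mark the larger responses to irradiation. Genes with an octamer had a median difference of 0.25 over 15 kept in cKO and 0.91 over 16 in WT cells, and genes with a window but no octamer had 0.54 over 20 in cKO and 1.11 over 20 in WT cells. At least 2-fold higher were 0 of the 15 and 5 of the 16 with an octamer, against 3 of the 20 in cKO and 15 of the 20 in WT cells without one. Gins1 and Gmnn, 2-fold higher in both genotypes, had no window and were in neither class. The same held for Gins2 and Prim2, 2-fold higher in WT cells. Mcm6, with 3 octamers in the stretch shown, differed by −0.03 in cKO and 0.70 in WT cells, and Rfc4, with none, by 1.12 and 1.64. Within each class the genes also went the other way: Mcm5, with 2 octamers, differed by 0.85 and 1.40, and Rfc1, with none, was the lowest of the set at −0.69 and −0.15. Between genotypes after irradiation the medians were −0.51 with and −0.50 without an octamer, and at steady state 0.14 and 0.03. These are descriptions of gene groups, and no test was made.

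**Figure D5:**
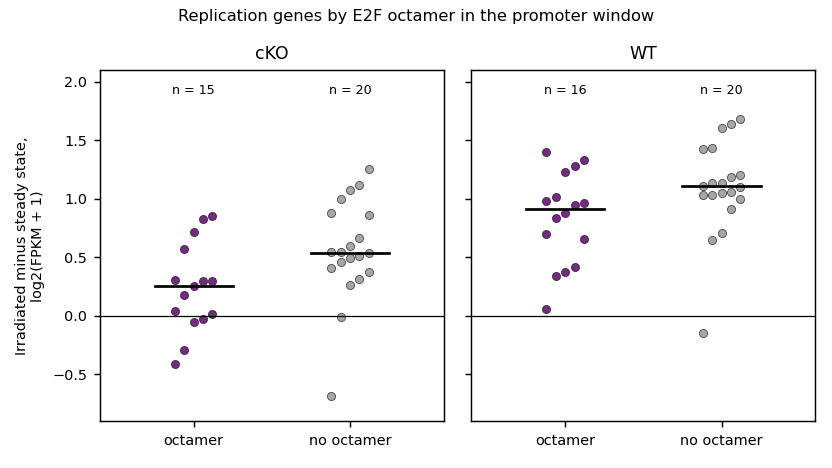
Difference between irradiated and steady-state cells on log2(FPKM + 1) for replication genes with (purple) and without (grey) an E2F octamer in the promoter window, in cKO (left) and WT cells (right), 1 point per gene with the median as a bar. Medians are 0.25 and 0.54 in cKO and 0.91 and 1.11 in WT cells, and the points of both classes overlap over most of their range.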

How the data were processed

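RNA was sequenced in 4 libraries, 1 per group. The deposited FPKM per gene were made by the authors; no source used here says how RNA reads were aligned and counted. Per the submitters' processing notes, which cover all samples, the build was mm10 and the tools were MACS2 2.1.0, HOMER, BWA 0.7.12-r1039 and Bowtie. Symbols were joined to 30231 of 30409 identifiers. Whole reads, gene model lengths and library sizes were recovered from the FPKM of all 30409 genes, with mitochondrial gene lengths as anchor (12 of 13 equal to RefSeq). A gene's reads are underestimated by a whole factor where its 4 counts share one. In simulated data they were exact for 96.4% of 3454 genes with 30 reads or more and 95.8% of 2378 with fewer. Authors' library sizes were 22146433 to 26031985. Ratios carry conditional exact binomial 95% intervals, for counting error only. The genes and lists were chosen with earlier results of these data known. All 45 genes could be named. Full values go to the 2 genes per role with the largest differences, the 6 highest and lowest per comparison and those singled out by level, and up to 4 genes of each other list. Alternatives are other pseudocounts (0.1, 5), minimum levels (1, 20 FPKM, none), 4 scalings, centring on the median of all genes and, chosen after the data were seen, leaving out the 12 overlapping genes. Python 3.11.15, numpy 2.4.6, pandas 2.3.3 and scipy 1.17.1 were used.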

Additional observations from a re-analysis of the deposited data

Results flagged for a closer look

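The genotype difference turned its sign between conditions in some results, and none of these turns was tested, since each group held 1 library. Over the replication genes the median difference of cKO minus WT was −0.51 after irradiation and 0.05 at steady state, which is a change of −0.56. For 15 genes with at least 5 FPKM in 1 library of both comparisons the counting intervals of the cKO over WT ratio lay below 1 after irradiation and above 1 at steady state. The share of all genes that turned by this rule is not given here, so the count is no result about replication genes. Of all genes kept, 87.5% were lower in cKO cells after irradiation and 51.5% higher at steady state. Under upper-quartile scaling 20 of 43 replication genes were higher in irradiated cKO cells. In the MCM ring the change was −0.62 for Mcm2, −0.67 for Mcm3, −0.61 for Mcm4, −0.73 for Mcm6 and −0.72 for Mcm7. At origins it was −0.65 for Cdc7, −0.63 for Orc3 and −0.74 for Orc5. For polymerase genes it was −0.66 for Pola1, −0.60 for Prim1 and −0.76 for Pold1, and for the loader and single-strand binding genes −0.67 for Rfc2, −0.46 for Rfc3, −0.58 for Rpa1 and −0.52 for Rpa2. The same change of medians over all genes was −0.46, and under upper-quartile scaling it was −0.18 over the replication genes and −0.04 over all genes.

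For 2 of the genes kept in both genotypes the counting intervals of the irradiated over steady ratio lay on opposite sides of 1. Mcm6, Cdc7, Rfc3 and Pole4 had differences of opposite sign as well, with an interval that spanned 1 in 1 genotype. Pola1 was lower after irradiation in cKO and higher in WT cells, a change of −0.66, and Rfc2 likewise, a change of −0.67. In cKO cells Pola1 passed the 5 FPKM minimum through the steady-state library alone. Under upper-quartile scaling all 43 genes kept were higher after irradiation in both genotypes, so no opposite signs were left. These differences between genotypes were not tested either.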

How the results depend on the processing

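No paired analysis was possible because each group holds 1 library. Of the counts and medians over the genes, 55 moved under an alternative, 220 did not and none changed sign, and of the single-gene values 1 called difference changed sign: Rfc1 after irradiation in cKO cells, at 0.24 under the upper quartile. Differences short of 1.5-fold, such as those of Pola1 and Rfc2 in cKO cells, are not in that count. Medians below are in the order cKO minus WT after irradiation, irradiated minus steady state in cKO and in WT cells, and the difference of differences, where they moved. With a pseudocount of 5 they were −0.45, 0.90 (WT cells) and −0.49. The genes at least 1.5-fold lower in irradiated cKO than WT cells numbered 6 then, those 2-fold higher after irradiation 3 in cKO and 14 in WT cells, those 1.5-fold lower after irradiation in cKO cells 0, and those with a difference of differences past 1.5-fold 9. At a minimum of 20 FPKM 9 genes were 1.5-fold higher and 0 lower after irradiation in cKO cells. With the median of ratios the medians were −0.41, 0.71, 1.19 and −0.48, and 3 genes were 1.5-fold lower in irradiated cKO cells, 12 were 2-fold and 24 were 1.5-fold higher and 0 lower after irradiation in cKO cells, and 5 passed in the difference of differences. With the upper quartile the medians were −0.016, 1.45, 1.62 and −0.17, and 0.16 for cKO minus WT at steady state, with counts of 0 lower in irradiated cKO cells, 34 (2-fold), 41 (1.5-fold) and 0 (lower) after irradiation in cKO, 37 in WT cells and 0 in the difference of differences. Without the 50 most abundant genes the medians were −0.14, 0.69 (WT cells), −0.39 and 0.24 (steady state), and the counts 0 lower in irradiated cKO cells, 1 (cKO) and 10 (WT) at 2-fold after irradiation and 1 in the difference of differences. With recovered read totals they were −0.17, 0.82 (WT cells), −0.36 and 0.18 (steady state), with 0, 12 (WT) and 0 genes. Centred on the median of all genes they were −0.062, 0.68, 0.83 and −0.18, with 0 lower in irradiated cKO cells, 10 at 2-fold, 23 at 1.5-fold and 0 lower after irradiation in cKO, 12 in WT cells and 0 in the difference of differences. The causes were not tested. Without the 12 overlapping genes 4 in cKO and 17 in WT cells were 2-fold higher after irradiation, and medians were 0.43 and 1.03. Depth limits Fen1, Orc1 and Pole most.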

Other observations

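Genes of the cell cycle engine outside the replication set were counted after irradiation in the same way. Of 15 S phase kinase and inhibitor genes, 13 were kept in each genotype, with 3 at least 2-fold higher and 2 lower in cKO cells, and 2 higher and 3 lower in WT cells. Of all genes 10.3% were higher and 22.6% lower in cKO cells and 18.9% each way in WT cells, so most of these counts are near the background. Ccne1, the G1/S cyclin E1, had 58.3 FPKM in irradiated cKO, 67.8 in irradiated WT, 12.7 in steady-state cKO and 13.6 in steady-state WT cells. Ccna2, the S phase cyclin A2, had 53.3 FPKM in irradiated cKO, 72.5 in irradiated WT, 16.0 in steady-state cKO and 16.8 in steady-state WT cells. Both cyclins were higher after irradiation in each genotype by over 2-fold, whereas 3 kinase inhibitors kept had lower levels and Cdkn2c, the inhibitor p18, differed by −0.06 in cKO and 0.08 in WT cells. The inhibitor Cdkn1b stayed under 5 FPKM. It had 0.946 FPKM in irradiated cKO, 1.13 in irradiated WT, 4.79 in steady-state cKO and 4.97 in steady-state WT cells. Other genes kept went both ways. Ccnd2, Ccnd3 and Cdk2 were lower, by −0.77, −0.81 and −0.61 in cKO and −0.42, −0.90 and −0.15 in WT cells. Ccne2, Cdc25a and Cdk4 were higher in both genotypes, and Cdk6 differed by −0.21 in cKO and 0.30 in WT cells. Cdc25a in WT cells passed the 5 FPKM minimum through the irradiated library alone. Cdk6 in cKO cells passed it through the steady-state library alone. Cdkn1c, the inhibitor p57 known from quiescent stem cells, had 0.376 FPKM in irradiated cKO, 0.177 in irradiated WT, 7.36 in steady-state cKO and 8.44 in steady-state WT cells, and Cdkn2d, the inhibitor p19, had 21.9 FPKM in irradiated cKO, 22.8 in irradiated WT, 78.4 in steady-state cKO and 76.0 in steady-state WT cells. Cdkn1c passed the 5 FPKM minimum through the steady-state library alone in both genotypes. Cdkn1a, the p53 target p21, had 36.6 FPKM in irradiated cKO, 29.5 in irradiated WT, 68.8 in steady-state cKO and 79.4 in steady-state WT cells, which passed 2-fold in WT cells (−1.40) and not in cKO cells (−0.89).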
